A study of Mus musculus with 18 samples.

Results

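Opposite-strand genes are transcribed from the DNA strand facing a named gene and are written in mouse nomenclature as the symbol of that sense gene followed by os. They were picked here as the loci whose symbol ends in os, or in os and a digit, where the symbol without that ending also names a locus of the table. This gave 395 of the 52179 loci with a symbol, which carry 294 opposite-strand symbols of 252 sense genes. Loci were defined by the transcript assembly of the study, so that 1 symbol can be held by several loci and 1 locus can join several symbols.

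Natural antisense transcripts are long noncoding RNAs that can overlap the sense gene, sit inside it, or start close to its promoter and run away from it. They are usually less abundant than the sense mRNA, and many are found mainly in the nucleus, where some act on the chromatin or the splicing of the neighbouring gene. A microRNA guides Argonaute to RNA through its seed, and antisense RNAs are among the noncoding RNAs that can hold matches to a seed.

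The RNA came from Neuro2A cells, a line from a mouse neuroblastoma. Cells were transfected with a biotinylated *miR-92b* mimic at 25 nM, with a biotinylated scrambled sequence (Scr) at 25 nM, or left untransfected (control), and nuclear and whole cell lysates were made from each, which gave 6 groups of 3 samples. RNA held by a biotinylated mimic was collected on streptavidin beads, and whether the untransfected lysates went over the same beads is not given in the sources used here. All groups share the cell line, selection of RNA by its poly(A) tail and a stranded library kit, and 3 samples per group were sequenced. Pull-down was checked by RT-qPCR over separate experiments, but whether the sequenced samples of a group came from separate cultures is not stated in the sources used here, so that p-values measure the spread between these samples, which may be technical.

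The loci with a symbol held 3752991 reads in the least deeply and 22920037 in the most deeply sequenced sample. All 12 mRNAs of a list of cytoplasmic mRNAs were lower in nuclear than in whole cell samples (median log2 difference -2.30), 6 of the 8 tested nuclear-retained noncoding RNAs were higher and none was lower, and 9 of 12 neuroblast genes passed the filter on low counts while no fibroblast or leukocyte marker did. Of 5 glial genes, 3 passed the filter and none was called. Nuclear Scr samples 2 and 3 and whole cell *miR-92b* sample 3 stood apart in the principal components and had the fewest loci with reads (14928, 15092 and 14300, against 15146 to 21421 in the other samples), and results that rest on them are given with and without them. Fits without them keep sample 1 alone in nuclear Scr, and samples 1 and 2 in whole cell *miR-92b*.

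By the order of the locus identifiers, the label held for only a part of the loci. Locus identifiers run along each chromosome once for each strand, and the strand read from that order was the annotated strand for 41220 of 41226 loci whose symbol no other locus holds (99.99%). By this order 292 of the 395 loci lay on the antisense strand and 103 lay on the strand of the sense gene, although they carry the opposite-strand symbol. These 103 share their symbol with another locus and were outside that check, so that their strand rests on the order alone. Loci on the sense strand belonged to 33 symbols, among them Grip1os2, Nr6a1os, Plxna4os2, Rsf1os1, Sox5os2 and Srrm4os. Such loci were not special to these genes, since 4531 of the 6950 loci whose symbol is held by several loci lay opposite to its annotated strand. Both kinds are described, separately, and the split was made after the files had been seen.

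In the annotation (GENCODE, GRCm38) all 286 pairs with both genes listed lay on opposite strands. The opposite-strand gene lay inside the sense gene in 124 pairs. In 81 pairs the genes overlapped head to head, and in 38 they faced away from each other without overlap, with a median of 164.5 bases between the starts. Tail-to-tail pairs were fewer, with 25 overlapping and 10 not, and in 8 pairs the sense gene lay inside the opposite-strand gene. Of the 294 symbols, 252 are annotated as antisense, 12 as processed transcript and 11 as lincRNA, and 8 as protein-coding.

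The mimic and its seed are shown because the study collected RNA with this sequence. The mature mouse *miR-92b* and the other members of its seed family are printed 5′ to 3′ from RefSeq (GRCm38.p6), with bases 2 to 8, the seed, in capitals. The family differs outside the capitals.
mmu-miR-92b-3p: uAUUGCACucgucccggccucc
mmu-miR-92a-3p: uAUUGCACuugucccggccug
mmu-miR-25-3p: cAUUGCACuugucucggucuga
mmu-miR-32-5p: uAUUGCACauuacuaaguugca
mmu-miR-363-3p: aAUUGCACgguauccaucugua
mmu-miR-367-3p: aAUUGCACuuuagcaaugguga

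Matches to the seed were searched in the annotated transcripts on the transcribed strand, as the words GTGCAAT and then TGCAATA, or as the 8 bases GTGCAATA, which hold both shorter words. A match was present in 28 of 288 opposite-strand genes (9.72%), against 11.4% of the 13012 noncoding genes of the same annotation classes and 30% of their 250 sense genes, whose transcripts are longer (median 3851 against 1211.5 bases). Among genes with a tested locus on the antisense strand, 13 of 76 (17.1%) held a match, and their median transcript length was 1887 bases. A match is a description of the letters and not a site of binding.

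The 4 matches that follow are those of Rab10os, Bcas3os1 and Srrm4os, whose loci were called in comparisons given further on, and of Mccc1os, which held the only 8 base match among the tested genes. Each is a stretch of 30 bases on the transcribed strand with the match in capitals. Rab10os was read at chr12:3241252-3241281 (plus strand, exon 4 of 4), Bcas3os1 at chr11:85704369-85704398 (minus strand, exon 5 of 5), Srrm4os at chr5:116464180-116464209 (plus strand, exon 4 of 4) and Mccc1os at chr3:36008520-36008549 (plus strand, exon 3 of 3), all in GRCm38.
Rab10os: taacacagacccTGCAATAaaaagagttaa
Bcas3os1: ctcctaggttcaTGCAATAgataaataagt
Srrm4os: tgccaatccgtGTGCAATcatttgactgtt
Mccc1os: ccttacttacaGTGCAATAttatggaggca

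Head-to-head pairs share the stretch between or across their starts. The windows of Brip1 and H3f3a are shown as an example without and an example with overlap of the pair in GENCODE. The GENCODE start of H3f3a lies outside its window, and whether the pair overlaps by the RefSeq start was not examined. Both were read on the strand of the sense gene from RefSeq (GRCm38.p6), at chr11:86201144-86201443 for Brip1 and chr1:180813556-180813855 for H3f3a, both minus strand. In the first the capitals mark the 176 bases between the annotated starts of Brip1os and Brip1, and in the second the 80 bases of the window that also lie in H3f3aos. The first holds 21 CG pairs of letters and the second 39.
Brip1: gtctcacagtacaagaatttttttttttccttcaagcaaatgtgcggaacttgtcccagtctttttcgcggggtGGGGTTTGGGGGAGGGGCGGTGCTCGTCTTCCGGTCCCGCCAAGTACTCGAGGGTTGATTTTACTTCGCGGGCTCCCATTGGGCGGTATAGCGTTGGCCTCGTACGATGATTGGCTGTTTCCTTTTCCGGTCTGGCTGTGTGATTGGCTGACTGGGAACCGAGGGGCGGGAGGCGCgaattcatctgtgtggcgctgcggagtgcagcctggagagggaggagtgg
H3f3a: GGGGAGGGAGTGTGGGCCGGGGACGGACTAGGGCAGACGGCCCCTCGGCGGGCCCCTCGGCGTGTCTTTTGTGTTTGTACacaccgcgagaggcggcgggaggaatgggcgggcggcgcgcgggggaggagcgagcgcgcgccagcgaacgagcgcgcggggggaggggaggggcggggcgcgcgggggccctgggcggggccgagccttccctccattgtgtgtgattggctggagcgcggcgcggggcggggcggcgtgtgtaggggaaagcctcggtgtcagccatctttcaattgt

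Most opposite-strand loci were read sparsely. Of the 292 loci on the antisense strand, 85 had no read in any sample, 152 had reads in both compartments, 46 in nuclear samples alone and 9 in whole cell samples alone. The antisense-strand loci took 52795 reads in the 9 nuclear samples and 56140 in the more deeply read whole cell samples. Of the 103 loci on the sense strand, 92 had reads in both compartments, 7 in nuclear samples alone and 4 in whole cell samples alone.

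Summed over all antisense-strand loci, normalized counts (the deposited reads of a locus after scaling each sample by its size factor) were higher in nuclear than in whole cell samples. They were 6025 ± 290 in nuclear control, 5480 ± 533 in nuclear Scr and 6086 ± 241 in nuclear *miR-92b* samples, each with its SD over 3 samples. The whole cell sums were 4113 ± 253 in control, 4811 ± 221 in Scr and 4207 ± 900 in *miR-92b*, with the lowest sum, 3198, in *miR-92b* sample 3. No whole cell sum reached the lowest nuclear sum of 5061. These sums include loci that join other genes, among them the locus of Maats1os and its sense gene Maats1. The loci on the sense strand summed to 7190 to 8901 in nuclear and 3307 to 7584 in whole cell samples, which overlapped. Without the 1 locus that joins Plxna4 and Plxna4os2 they summed to 4935 to 6363 in nuclear and 1643 to 4919 in whole cell samples, which did not overlap.

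**Figure D1:**
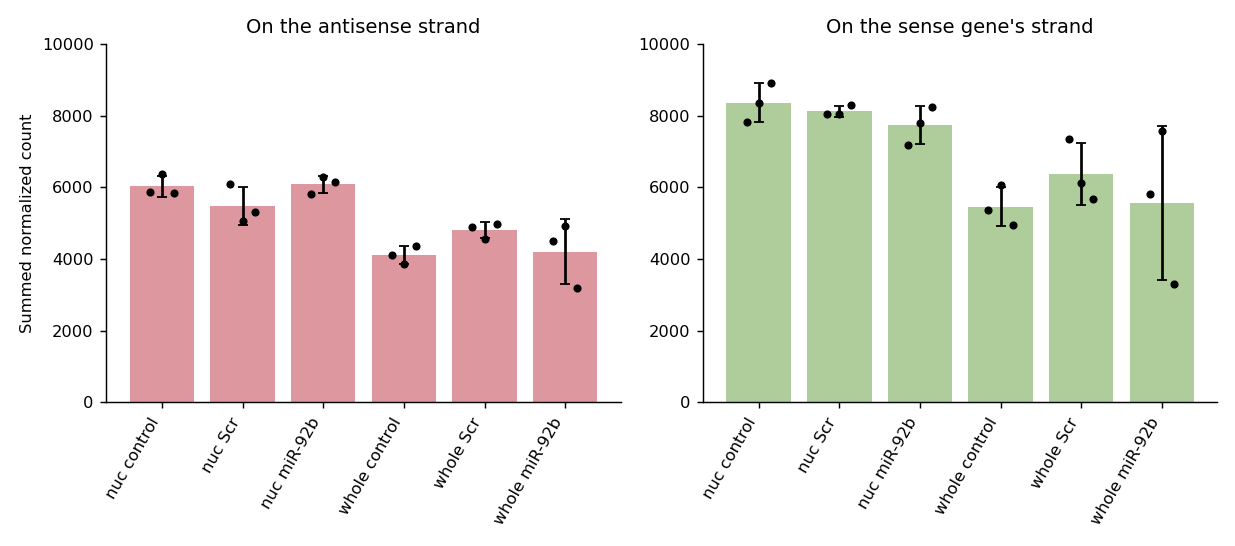
Summed normalized counts of the opposite-strand loci on the antisense strand (left) and on the strand of the sense gene (right), by group. Points are samples, bars the mean and whiskers the SD of 3 samples. On the left all 9 nuclear samples (5061 to 6360) lie above all 9 whole cell samples (3198 to 4986).

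Loci were tested where their normalized count averaged 10 or more across the 18 samples, which held for 78 loci on the antisense strand and 52 on the sense strand. For 6 of the 78 and 7 of the 52, only the nuclear mean reached that level, and for 2 and 5 only the whole cell mean did, so that the tested loci are not all members and some passed only where they were high. Joined with other symbols were 10 of the 78 and 1 of the 52.

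Per transcript length, most antisense-strand loci were below their sense locus. Some loci on either side join further symbols, such as Map2k3os with Natd1 and Zbtb11 with Rpl24. Their FPKM is not that of the named gene alone. In 75 pairs with both loci tested, the median FPKM over the 9 nuclear samples was lower for the antisense locus in 61, and over the 9 whole cell samples in 67. Among the 14 pairs with the antisense locus higher in nuclear samples were Brip1os (median FPKM 10.1, Brip1 6.35), Rab10os (14.3, Rab10 13.8), Ppp2r2cos (4.12, Ppp2r2c 3.52), Prox2os (3.63, Prox2 2.34) and Tspan32os (4.75, Tspan32 0.507). In whole cell samples the order of Rab10os and Rab10 was the other way round, with median FPKM of 11.4 and 22.6, and so was that of Ppp2r2cos and Ppp2r2c, with 2.43 and 11.7.

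The nuclear and whole cell samples were compared with limma on log2(normalized count + 1) over all 15579 loci tested, as the mean of the differences in control, Scr and *miR-92b* samples. Of the 78 antisense-strand loci, 12 were higher in nuclear samples (15.4%), near the 15.3% of all loci called higher. Only 1 was lower (1.28%), where 15.8% of all loci were. The median log2 difference was 0.65 for the antisense-strand loci and 0.14 for all loci, and 57 of the 78 differences were above 0. Of the 52 loci on the sense strand, 9 were higher (17.3%) and none lower, with a median of 0.70. These 9 carry the symbols Grip1os2, Nr6a1os, Plxna4os2 or Sox5os2, so that several share 1 sense gene. At an unadjusted limma p below 0.05 there were 18 of the 52, 24 of the 78 antisense-strand loci and 6549 of all 15579 loci. With edgeR on the recovered reads 8 antisense-strand loci were higher and none lower, and with DESeq2 12 were higher and 2 lower, while no sense-strand locus was lower with either. The shares over all loci with edgeR and DESeq2 are not given here. The sense loci were spread to both sides, with 11 of 70 higher, 16 lower and a median of -0.06.

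The difference varied with the level. Of 15 antisense-strand loci with a mean count of 100 or more, 7 were higher in nuclear samples (46.7%) and none lower, while of the 8279 loci at that level 22.1% were higher and 24.3% lower, and the medians were 0.75 and 0.01. Between 30 and 100 counts, 5 of 29 were higher and 1 was lower, and the median of 0.37 stood beside 0.25 for all loci. Between 10 and 30 counts none of 34 was called, and the median of 0.65 was close to the 0.68 of all 3404 loci at that level. On the sense strand, 8 of 15 loci with a mean count of 100 or more were higher (53.3%) and none lower, with a median of 0.73. These 8 carry the symbols Grip1os2, Nr6a1os or Plxna4os2, so that they are loci of few sense genes. These ranges were set after the data were seen and the differences between classes were not tested.

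Requiring that every nuclear sample exceed every whole cell sample gave no antisense-strand locus, and the reverse gave none either. Over all loci 2.91% and 4.4% were apart in this way, nuclear higher and whole cell higher. Of the 52 loci on the sense strand, 2 had every nuclear sample above every whole cell sample, Grip1os2 XLOC_014630 and Nr6a1os XLOC_089245.

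**Figure D2:**
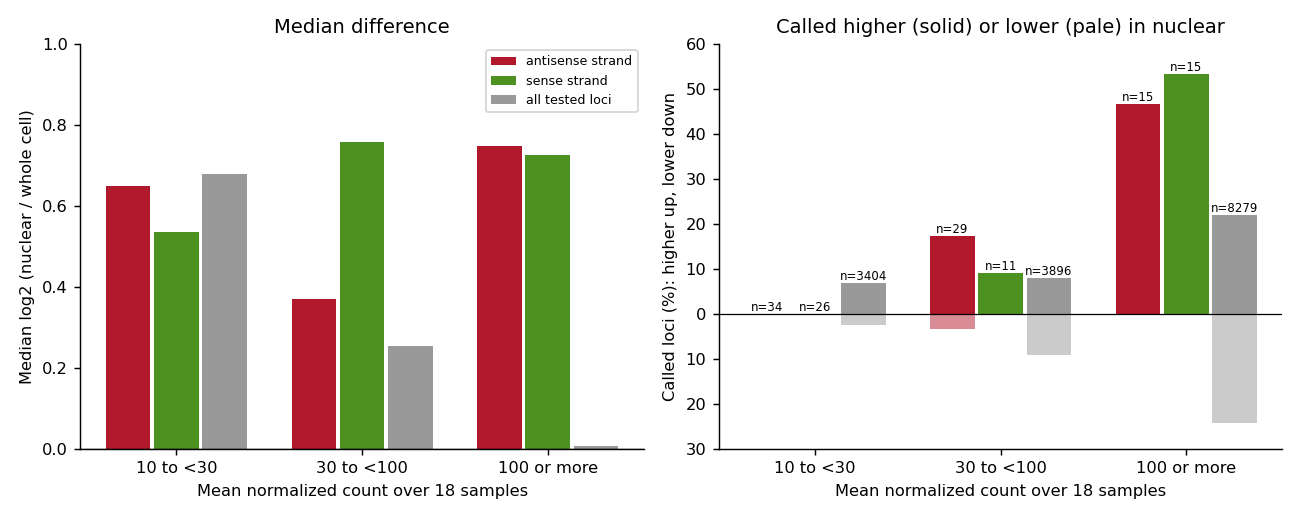
Median log2 difference between nuclear and whole cell samples (left) and the percentage of loci called higher (solid, upward) or lower (pale, downward) in nuclear samples (right), for loci in 3 ranges of mean normalized count. At 100 counts or more the antisense-strand median is 0.75 and that of all loci 0.01, while between 10 and 30 counts they are 0.65 and 0.68.

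By arrangement, the median log2 difference was 0.72 for the 34 tested loci inside their sense gene, of which 4 were higher, and 0.59 for the 21 that overlap head to head, of which 4 were higher and 1 lower. Of the 9 that overlap tail to tail, 4 were higher, with a median of 0.75. None of the 7 head-to-head pairs without overlap and none of the 4 such tail-to-tail pairs was called, with medians of 0.77 and 0.36. These are counts in small classes and were not compared by a test.

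Rab10os (ENSMUSG00000079179, chr12:3235504-3250377, plus strand) overlaps the 3′ end of Rab10, a small GTPase of vesicle transport to the cell surface, over 2950 bases. Its normalized counts were 355, 422 and 400 in nuclear control, 408, 371 and 320 in nuclear Scr and 447, 472 and 457 in nuclear *miR-92b* samples. In whole cell samples they were 258, 168 and 303 in control, 486, 206 and 322 in Scr and 233, 187 and 133 in *miR-92b* samples. The compartments did not overlap in control or in *miR-92b* samples and overlapped in Scr samples, where sample 1 of the whole cell group was the highest of all. Rab10os was higher in nuclear samples by 0.76 (log2, SE 0.17, limma adjusted p = 0.0018).

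Rab10 went the other way. Its counts ran from 277 to 497 in nuclear samples, with a median of 362, and from 434 to 1194 in whole cell samples, with a median of 535, and it was lower in nuclear samples by 0.72 on the log2 scale (log2 difference -0.72, SE 0.17, adjusted p = 0.0019). The difference between Rab10os and Rab10 was 1.48 larger in nuclear than in whole cell samples (log2), with p = 0.001 in an exact two-sided permutation test within conditions. On the FPKM scale Rab10os was not called (log2 difference 0.55, adjusted p = 0.083).

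H3f3aos (ENSMUSG00000073485, chr1:180813776-180816859, plus strand) starts head to head with H3f3a, a gene of the replacement histone variant of H3, and overlaps its first 168 bases. Normalized counts of H3f3aos were 24.6, 57.8 and 36.4 in nuclear control, 50.3, 125 and 51.7 in nuclear Scr and 13.7, 36.0 and 52.7 in nuclear *miR-92b* samples. In whole cell samples they were 0, 22.5 and 35.9 in control, 0, 15.2 and 50.8 in Scr and 7.20, 7.14 and 0 in *miR-92b* samples. All nuclear samples thus held reads and 3 whole cell samples held none, but the compartments overlapped. The log2 difference was 2.61 (SE 0.85, adjusted p = 0.0229), on a scale that for a gene with zeros depends on the added count.

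H3f3a had counts from 157 to 975 in whole cell samples, with a median of 543, and from 66.8 to 194 in nuclear samples, with a median of 154. Its log2 difference was -1.73 (SE 0.25, adjusted p = 1.5e-05). H3f3aos relative to H3f3a was 4.34 higher in nuclear samples (log2, exact permutation p = 0.00025, the smallest that the 8000 arrangements allow). The call of H3f3aos alone was lost without nuclear *miR-92b* sample 3 (adjusted p = 0.051) or whole cell control sample 1 (adjusted p = 0.057, log2 difference 2.06), and with edgeR (adjusted p = 0.112). Rab10os and H3f3aos were the only 2 of the 75 pairs in which the antisense locus was called higher and the sense locus called lower.

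Chn1os3 (ENSMUSG00000086544, chr2:73596526-73616012, plus strand) overlaps the 3′ end of Chn1, the gene of a chimaerin that switches off the GTPase Rac. Its counts were 34.7, 71.3 and 22.2 in nuclear control, 47.2, 42.6 and 108 in nuclear Scr and 28.7, 31.3 and 60.4 in nuclear *miR-92b* samples. Whole cell samples held 16.5, 13.0 and 26.5 in control, 0, 14.2 and 34.8 in Scr and 9.90, 14.3 and 0 in *miR-92b*. Within each condition every nuclear sample was above every whole cell sample except in control, where 1 pair crossed. The log2 difference was 2.26 (SE 0.74, adjusted p = 0.0236), while Chn1 had -0.35 (adjusted p = 0.154), and their difference was 2.61 higher in nuclear samples (exact permutation p = 0.0005). The call of Chn1os3 was lost without nuclear control sample 2 (adjusted p = 0.054) or nuclear *miR-92b* sample 3 (adjusted p = 0.053).

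Prox2os (ENSMUSG00000093629, chr12:85086374-85088228, plus strand) overlaps the 3′ end of Prox2, a homeobox gene. Its counts were 452, 426 and 313 in nuclear control, 346, 372 and 269 in nuclear Scr and 329, 396 and 471 in nuclear *miR-92b* samples, and in whole cell samples 187, 237 and 168 in control, 290, 328 and 347 in Scr and 373, 180 and 72.0 in *miR-92b*. The compartments were apart in control and overlapped with either mimic. Prox2os was higher in nuclear samples by 0.75 (log2, SE 0.22, adjusted p = 0.0121), and so was Prox2, by 1.77 (SE 0.60, adjusted p = 0.0267). On the FPKM scale Prox2os was not called (log2 difference 0.48, adjusted p = 0.358).

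**Figure D3:**
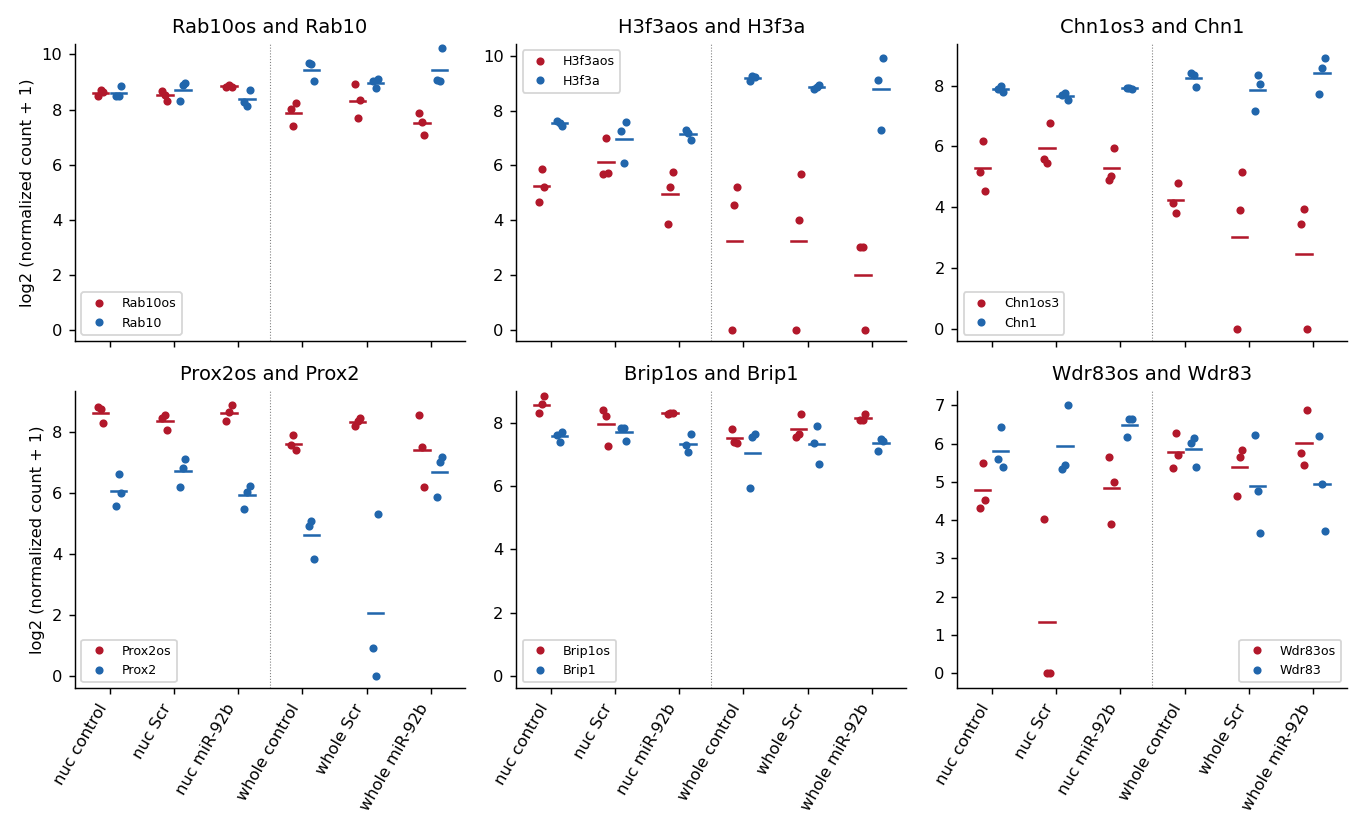
Normalized counts, as log2(count + 1), of 6 antisense-strand loci (red) and their sense genes (blue) in the 6 groups. Points are the 3 samples of a group and lines their mean. Rab10os and H3f3aos lie higher in nuclear samples (left of the dotted line) while Rab10 and H3f3a lie lower, and Wdr83os has 2 nuclear Scr samples at 0.

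Among the other called loci inside their sense gene, Bcas3os1 and Bcas3os2 both lie in Bcas3, which encodes a protein of the cytoskeleton and of autophagy. Bcas3os1 counts ran from 28.5 to 179 in nuclear and from 0 to 28.6 in whole cell samples, and the log2 difference was 1.84 (SE 0.66, adjusted p = 0.0356). The Bcas3os2 locus, which is joined with 2610027K06Rik, ran from 85.8 to 194 in nuclear and from 36.3 to 91.4 in whole cell samples, with a log2 difference of 1.04 (SE 0.28, adjusted p = 0.0066). Bcas3 was not called (log2 difference 0.60, adjusted p = 0.123). Bcas3os1 lost its call, with adjusted p up to 0.072, without nuclear control 1 or 2, nuclear Scr 3, nuclear *miR-92b* 2 or 3, whole cell control 1, whole cell Scr 1 or whole cell *miR-92b* 3, while the Bcas3os2 locus kept it in each of the 18 leave-one-out fits and lost it on the FPKM scale (log2 difference 1.11, adjusted p = 0.061).

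Dnm3os lies in Dnm3, the gene of a dynamin, and is known as a host transcript of microRNAs. Its counts were 201, 198 and 301 in nuclear control, 181, 325 and 135 in nuclear Scr and 208, 138 and 206 in nuclear *miR-92b* samples, and in whole cell samples 83.5, 63.1 and 124 in control, 123, 120 and 214 in Scr and 154, 130 and 13.4 in *miR-92b*. The compartments were apart in control alone. Dnm3os was higher in nuclear samples by 1.09 (log2, SE 0.36, adjusted p = 0.0226), and Dnm3 by 0.76 (SE 0.21, adjusted p = 0.0084), so that both strands moved the same way. Dnm3os missed the threshold without the filter on low counts (adjusted p = 0.056) and on the FPKM scale (log2 difference 1.04, adjusted p = 0.062). Dtnbos, in the dystrobrevin gene Dtnb, had a log2 difference of 1.96 (SE 0.68, adjusted p = 0.0307), with counts from 30.5 to 137 in nuclear and from 0 to 75.7 in whole cell samples. Dtnbos lost its call, with adjusted p up to 0.060, without any 1 of nuclear control 2 or 3, nuclear Scr 2, nuclear *miR-92b* 1, 2 or 3, whole cell control 1, whole cell Scr 2 or 3, or whole cell *miR-92b* 1. Dtnb was not called (log2 difference -0.07).

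Among head-to-head pairs, Phtf1os stands opposite Phtf1, named for a putative homeodomain, and ran from 177 to 445 in nuclear and from 109 to 256 in whole cell samples (log2 difference 0.59, SE 0.20, adjusted p = 0.0243). Phtf1os relative to Phtf1 was 0.77 higher in nuclear samples (exact permutation p = 0.00175). Its own call was lost without nuclear control 3 or nuclear *miR-92b* 1 (adjusted p = 0.063 and 0.064). Zmiz1os1, opposite the transcriptional coactivator gene Zmiz1, ran from 47.5 to 149 in nuclear and from 4.28 to 139 in whole cell samples (log2 difference 1.42, SE 0.45, adjusted p = 0.0195), beside 0.36 for Zmiz1 (adjusted p = 0.049), and on the FPKM scale Zmiz1os1 was not called (log2 difference 1.09, adjusted p = 0.098). Tspan32os, opposite the tetraspanin gene Tspan32, ran from 59.9 to 207 in nuclear samples and from 0 to 155 in whole cell samples, where 2 samples had no read. Its log2 difference was 2.18 (SE 0.81, adjusted p = 0.0425), and the call was lost in 13 of the 18 leave-one-out fits, with adjusted p up to 0.099. It was kept without nuclear Scr 2, whole cell Scr 2 or 3, or whole cell *miR-92b* 1 or 2, and without whole cell Scr 1 or whole cell *miR-92b* 3, the samples with no read, the log2 difference was 1.53 or 1.398.

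Ccdc142os, tail to tail with the coiled-coil gene Ccdc142, ran from 190 to 362 in nuclear and from 15.3 to 213 in whole cell samples (log2 difference 1.05, SE 0.33, adjusted p = 0.0192). The lowest value was that of whole cell *miR-92b* sample 3, and without the 3 libraries that stood apart the log2 difference was 0.57 (adjusted p = 0.063). The locus of Ccdc142, which is joined with Mrpl53, was also higher (log2 difference 0.46, adjusted p = 0.0358).

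The only antisense-strand locus called lower was Wdr83os, which is annotated as protein-coding and encodes a small membrane protein of the endoplasmic reticulum. Its counts were 18.8, 44.4 and 22.2 in nuclear control, 15.2, 0 and 0 in nuclear Scr and 49.2, 13.8 and 30.9 in nuclear *miR-92b* samples, against 39.98, 76.1 and 50.7, 23.7, 49.6 and 56.6, and 53.1, 42.8 and 117 in the whole cell groups in the same order. The log2 difference was -2.07 (SE 0.64, adjusted p = 0.0156), and the 2 samples at 0 were the nuclear Scr samples that stood apart. Without the 3 libraries the log2 difference was -1.04 (adjusted p = 0.151). Slc7a6os, the other protein-coding member tested, had a log2 difference of 0.03.

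Without those 3 libraries together, the median log2 difference was 0.64 for the antisense-strand loci and 0.62 for the sense-strand loci. The median over all loci in that fit is not given here. Among the calls lost in it were those of Bcas3os1, Ccdc142os, Chn1os3, Dtnbos, H3f3aos, Tspan32os and Wdr83os. Without the filter on low counts the calls of Bcas3os1, Ccdc142os, Dnm3os, Dtnbos, H3f3aos, Tspan32os and Grip1os2 XLOC_014634 were lost. The FPKM scale ended those of the Bcas3os2 locus, Ccdc142os, Dnm3os, Prox2os, Rab10os, Tspan32os, Zmiz1os1, Grip1os2 XLOC_014634 and XLOC_014635 and Nr6a1os XLOC_089247. With edgeR those of Bcas3os1, Chn1os3, Dtnbos, H3f3aos, Tspan32os and Wdr83os were lost, and with DESeq2 those of Dtnbos and Tspan32os. A pseudocount of 0.5 ended the call of Tspan32os, a filter at a mean of 1 that of Nr6a1os XLOC_089247, and sample weights that of Sox5os2. How far depth and sample quality bear on the calls of low loci was not tested beyond these fits.

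Compared pair by pair, the antisense locus minus its sense locus was higher in nuclear samples in 53 of 75 pairs and lower in 22, with a median of 0.61 on the log2 scale. Antisense and sense loci were not matched for level. Over all loci the median log2 difference was 0.68 between 10 and 30 counts and 0.01 at 100 counts or more. How far level bears on the differences within pairs was not tested. In 19 pairs the exact two-sided permutation test within conditions gave an unadjusted p below 0.05, 16 with the antisense locus relatively higher in nuclear samples and 3 with it relatively lower, Wdr83os (-2.92, p = 0.00125), Sp3os (-2.16, p = 0.0298) and Kank4os (-2.11, p = 0.0275). The 75 pairs hold 71 sense loci, and these p-values were not adjusted. In 30 pairs the antisense and the sense locus had differences of opposite sign. The same test was run on 47 pairs with a sense-strand locus, some of them given further on. Of these, 10 had an unadjusted p below 0.05, all relatively higher in nuclear samples. The 47 pairs hold only 13 sense loci, so that many of them share 1 sense locus and are not independent.

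**Figure D4:**
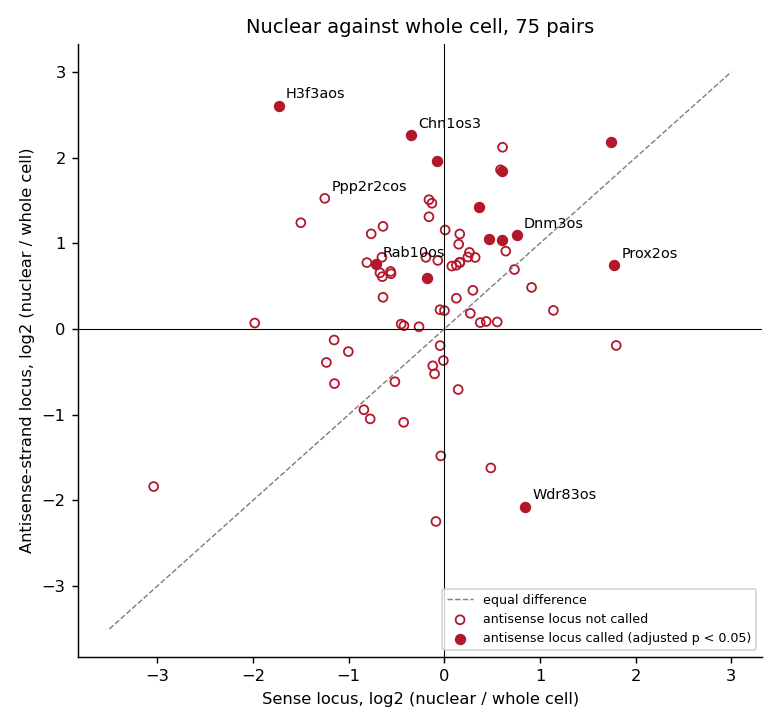
Log2 difference between nuclear and whole cell samples of each antisense-strand locus (vertical) against that of its sense locus (horizontal) for 75 pairs, with filled points for antisense loci at adjusted p below 0.05. Points above the dashed line, 53 of 75, have the antisense locus relatively higher in nuclear samples, and H3f3aos and Rab10os lie in the upper left. Antisense and sense loci were not matched for level.

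By condition the calls were few. In control samples 1 antisense-strand locus was higher in nuclear samples and none was lower, where 2.94% of all loci were higher and 6.91% lower. It was Brip1os (ENSMUSG00000085208, chr11:86201370-86304443, plus strand), whose start lies 177 bases from that of Brip1, a DNA helicase that binds BRCA1. Brip1os counts were 316, 386 and 465 in nuclear control and 225, 169 and 165 in whole cell control samples, which did not overlap (log2 difference 1.06, SE 0.30, adjusted p = 0.0259). They were 341, 298 and 155 in nuclear Scr, 314, 319 and 318 in nuclear *miR-92b*, 187, 202 and 310 in whole cell Scr and 274, 271 and 314 in whole cell *miR-92b* samples, and over the conditions the call was missed (log2 difference 0.45, adjusted p = 0.0514). The control call was also missed without nuclear control 2 or 3 or whole cell control 2 or 3 (adjusted p 0.079 to 0.127). Brip1 was not called over the conditions (log2 difference 0.30, adjusted p = 0.358).

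In Scr samples, with 1.46% of all loci higher and 3.7% lower, 1 antisense-strand locus was higher and 1 lower. They were Dtnbos (log2 difference 3.96, SE 1.17, adjusted p = 0.0496) and Wdr83os (-4.04, SE 1.10, adjusted p = 0.0339). Without the 3 libraries, with nuclear Scr sample 1 alone in its group, their log2 differences were 3.04 and -1.36, and edgeR called neither. Dtnbos also lost its call without any 1 nuclear control, nuclear *miR-92b* or whole cell control sample, nuclear Scr 2 or 3 or whole cell Scr 2 or 3, with adjusted p up to 0.157. Wdr83os lost its call without nuclear Scr 2 or 3, nuclear *miR-92b* 3 or any 1 whole cell Scr sample, with adjusted p up to 0.099.

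In *miR-92b* samples, with 6.66% of all loci higher and 6.63% lower, 5 antisense-strand loci were higher (6.41%) and none lower. They were Rab10os (log2 difference 1.35, SE 0.30, adjusted p = 0.0042), Prox2os (1.22, SE 0.38, adjusted p = 0.0359), Zmiz1os1 (2.71, SE 0.79, adjusted p = 0.0239), Srrm4os (1.82, SE 0.51, adjusted p = 0.0201) and Ppp2r2cos (4.09, SE 1.05, adjusted p = 0.0115). Rab10os kept this call in each leave-one-out fit, and missed it on the FPKM scale (0.94, adjusted p = 0.144). Without whole cell *miR-92b* sample 3 the difference of Srrm4os was 1.01 (adjusted p = 0.164) and that of Prox2os 0.60 (adjusted p = 0.279). Srrm4os also lost its call without nuclear *miR-92b* 2 or 3, Prox2os without any 1 nuclear *miR-92b* sample, and Zmiz1os1 without any 1 nuclear *miR-92b* sample or without whole cell *miR-92b* 2 (1.76, adjusted p = 0.094).

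The median log2 difference of the 78 antisense-strand loci was 0.37 in control, -0.08 in Scr and 1.18 in *miR-92b* samples, beside 0.06, 0.01 and 0.26 over all loci. Without the 3 libraries that stood apart, the Scr and *miR-92b* medians were 0.69 and 0.58, beside 0.18 and 0.12 over all loci. The order of the conditions thus changed without those libraries, but the Scr median then rested on nuclear Scr sample 1 alone.

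Ppp2r2cos lies in Ppp2r2c, the gene of a regulatory subunit of protein phosphatase PP2A. Its counts were 60.1, 67.3 and 32.2 in nuclear and 16.2, 0 and 0.637 in whole cell *miR-92b* samples, against 31.8, 28.5 and 31.2 in whole cell control and 47.3, 51.6 and 37.7 in whole cell Scr samples. The whole cell *miR-92b* samples lay below the other whole cell samples, and nuclear Scr sample 3, with 12.6, was the one other sample as low. The call was lost without nuclear *miR-92b* 1 or 2 (adjusted p = 0.052 and 0.061). Over the conditions Ppp2r2cos had a log2 difference of 1.52 (adjusted p = 0.0592) while Ppp2r2c was lower in nuclear samples (-1.25), and their difference was 2.77 higher in nuclear samples (exact permutation p = 0.0015).

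No opposite-strand locus was called between *miR-92b* and Scr samples in either compartment, between *miR-92b* and control samples in either compartment, or for the difference between compartments in *miR-92b* against Scr. Over all loci 0% were called in nuclear *miR-92b* against Scr, 0% in nuclear *miR-92b* against control, and 0.00642%, 1 locus, in each of the other 3 comparisons. At an unadjusted limma p below 0.05 there were 8 of 130 opposite-strand loci in nuclear and 12 in whole cell *miR-92b* against Scr, none and 7 against control, and 11 for the difference. Over all 15579 loci there were 687 and 1515 against Scr, 50 and 731 against control, and 1123 for the difference. With edgeR and with DESeq2 no opposite-strand locus was called in any of these 5 comparisons.

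The opposite-strand locus nearest to a call in whole cell *miR-92b* against Scr was Ppp2r2cos (log2 difference -3.92, SE 1.05, limma adjusted p = 0.272), which was also below control (-3.37, adjusted p = 1). Next stood the antisense-strand locus of Srrm4os (-1.78, SE 0.51, adjusted p = 0.311). Its lowest count was that of whole cell *miR-92b* sample 3, which stood apart, and its difference without that sample is not given here. Neither Ppp2r2cos nor Srrm4os passed the threshold over all loci. Srrm4os holds a match to the *miR-92b* seed, shown above, and Ppp2r2cos is not among the tested genes with one.

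The median log2 difference of the 78 antisense-strand loci between *miR-92b* and Scr was 0.69 in nuclear samples, with 0.11 over all loci, and -0.29 in whole cell samples, with -0.01 over all loci. Without the 3 libraries that stood apart these medians were -0.01 and -0.03, the first against nuclear Scr sample 1 alone. In the nuclear Scr samples 2 and 3, 22 of the 78 loci had no read (28.2%), and in whole cell *miR-92b* sample 3 it was 21 (26.9%), while among all tested loci 12.9% to 16.7% had none in these 3 samples. In the other samples between 0 and 19 of the 78 had no read.

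Among loci that carry an opposite-strand symbol but lie on the sense strand, the one with the highest mean count was the one that joins Plxna4, a receptor for semaphorins, and Plxna4os2. It holds the sense gene itself, and its counts, from 2156 to 2675 in nuclear and 1664 to 2948 in whole cell samples, overlapped (log2 difference 0.16, adjusted p = 0.28). A separate Plxna4os2 locus (XLOC_127056) on the strand of Plxna4 had 879.5, 999 and 1123 in nuclear control, 830, 861 and 1165 in nuclear Scr and 669, 823 and 893 in nuclear *miR-92b* samples, against 356, 555 and 413, 441, 729 and 515, and 616, 705 and 321 in whole cell control, Scr and *miR-92b* samples. Only the *miR-92b* groups overlapped. Its log2 difference was 0.86 (SE 0.15, adjusted p = 1.4e-04), and 0.70 relative to the joined locus (exact permutation p = 0.001). The Plxna4os2 locus on the antisense strand had 0.78, and 0.62 relative to the joined locus (exact permutation p = 0.0153).

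A group of 7 tested Grip1os2 loci lies on the strand of Grip1, a scaffold that binds glutamate receptors. Called higher in nuclear samples were XLOC_014630 (log2 difference 1.10, SE 0.28, adjusted p = 0.0042), XLOC_014631 (1.31, adjusted p = 0.0159), XLOC_014635 (0.82, adjusted p = 0.0178) and XLOC_014634 (0.73, adjusted p = 0.0293). Counts of XLOC_014630 ran from 584 to 870 in nuclear and from 53.5 to 536 in whole cell samples and did not overlap. Grip1 was not called (log2 difference -0.16, adjusted p = 0.422), and relative to Grip1 these 4 loci were higher in nuclear samples by 1.26, 1.47, 0.98 and 0.89 (exact permutation p = 0.00025, 0.006, 0.00425 and 0.015). Whole cell *miR-92b* sample 3 held the lowest count of XLOC_014630, XLOC_014634 and XLOC_014635, and without it the difference of XLOC_014634 was 0.52 (adjusted p = 0.051). Without the 3 libraries XLOC_014631 had 0.87 (adjusted p = 0.149). XLOC_014634 also lost its call without nuclear control 2, nuclear Scr 3, nuclear *miR-92b* 2, whole cell control 2 or whole cell Scr 2, with adjusted p up to 0.070.

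Of 10 tested Nr6a1os loci on the strand of Nr6a1, an orphan nuclear receptor, XLOC_089245 (log2 difference 1.01, SE 0.21, adjusted p = 8.8e-04), XLOC_089251 (0.68, SE 0.16, adjusted p = 0.0017) and XLOC_089247 (0.55, SE 0.19, adjusted p = 0.031) were higher in nuclear samples. Here the sense gene was higher as well (Nr6a1, log2 difference 0.59, SE 0.16, adjusted p = 0.0069), and relative to it the differences of XLOC_089251 and XLOC_089247 were 0.10 and -0.03 (exact permutation p = 0.643 and 0.887). XLOC_089245 was higher relative to Nr6a1 by 0.42 (exact permutation p = 0.0413, and 0.00575 to 0.098 with 1 sample left out). XLOC_089247 lost its call in 9 of the 18 leave-one-out fits, with adjusted p up to 0.075, those without nuclear control 2, nuclear Scr 1, nuclear *miR-92b* 2 or 3, whole cell control 1 or 3, whole cell Scr 2 or 3 or whole cell *miR-92b* 3. A Sox5os2 locus (XLOC_130880) on the strand of Sox5, a transcription factor, had a log2 difference of 1.05 (SE 0.35, adjusted p = 0.0234), and 0.68 without the 3 libraries (adjusted p = 0.175). It lost its call without nuclear control 3 or nuclear *miR-92b* 1 or 3.

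By condition, sense-strand loci called higher in nuclear samples were Plxna4os2 XLOC_127056 (1.20, SE 0.26, adjusted p = 0.0042) and Grip1os2 XLOC_014631 (2.22, SE 0.70, adjusted p = 0.0438) in control samples, none in Scr samples, and Srrm4os XLOC_120882 (1.53, adjusted p = 0.011), Nr6a1os XLOC_089245 (1.25, adjusted p = 0.026), Nr6a1os XLOC_089247 (1.05, adjusted p = 0.0378) and Grip1os2 XLOC_014630 (1.51, adjusted p = 0.0397) in *miR-92b* samples. The calls were 3.85% of the 52 loci in control and 7.69% in *miR-92b* samples, beside 2.94% and 6.66% of all loci called higher. At an unadjusted limma p below 0.05 there were 6 of the 52 in Scr samples, beside 3448 of all 15579 loci. Without whole cell *miR-92b* sample 3 none of these 4 *miR-92b* calls held, with differences of 0.92 (adjusted p = 0.085), 0.85 (adjusted p = 0.168), 0.71 (adjusted p = 0.218) and 0.46 (adjusted p = 0.251) in the same order. Without whole cell control sample 1, Grip1os2 XLOC_014631 had 1.25 in control samples (adjusted p = 0.293).

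Loci with the symbol Srrm4os lay on both strands by the order of the identifiers. Srrm4 directs the splicing of neuronal microexons, and Srrm4os (ENSMUSG00000086219, chr5:116438720-116465487, plus strand) overlaps it tail to tail over 26213 bases. The antisense-strand locus (XLOC_116201) had 313, 331 and 356 in nuclear control, 311, 113 and 117 in nuclear Scr, 270, 351 and 288 in nuclear *miR-92b*, 148, 169 and 111 in whole cell control, 370, 217 and 309 in whole cell Scr and 96.3, 230 and 26.8 in whole cell *miR-92b* samples. The locus on the strand of Srrm4 (XLOC_120882) had 438, 375 and 452.5, 416, 153 and 199, 399, 418 and 405, 282, 321 and 228, 281, 322 and 392, and 215, 214 and 59.9 in the same order. Both loci were at their lowest within the group in nuclear Scr samples 2 and 3 and in whole cell *miR-92b* sample 3. Srrm4 had 911, 815 and 1369 in nuclear Scr samples and 870, 709.7 and 595 in whole cell *miR-92b* samples, the last being its lowest value in any sample.

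Over the 18 samples the log2 counts of these 2 loci had a Pearson r of 0.92, and 0.76 without the 3 libraries, and after removing group means r was 0.87 over all samples. The points share libraries and their depth, so that r is a description of these libraries. The strand setting of the counting is not given, and whether the 2 loci share reads was not tested. For Grip1os2 the antisense-strand locus (mean count 23.8) and XLOC_014630 had r of 0.89, and 0.71 without the 3 libraries. Among all 33 combinations of an antisense-strand and a sense-strand locus of 1 symbol, these were the 2 with the highest r, and r ran down to -0.24.

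**Figure D5:**
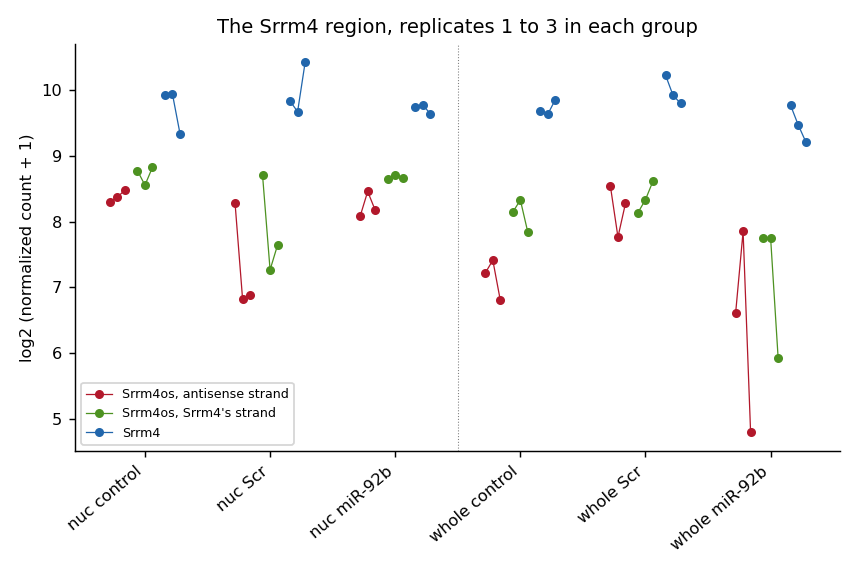
Normalized counts, as log2(count + 1), of the Srrm4os locus on the antisense strand (red), the Srrm4os locus on the strand of Srrm4 (green) and Srrm4 (blue), with samples 1 to 3 of each group joined by a line. Both Srrm4os loci are low in nuclear Scr samples 2 and 3 and in whole cell *miR-92b* sample 3, while Srrm4 stays between 595 and 1369 normalized counts in all samples.

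Other antisense genes, with symbols ending in as or ot and a sense symbol in the table, numbered 6 by the same kind of rule, of which 4 were tested. Dlx1as, opposite a homeobox gene of interneurons, was higher in nuclear samples (log2 difference 2.14, adjusted p = 0.0337), and so was the imprinted antisense RNA Kcnq1ot1 (0.98, adjusted p = 1.2e-05). The 2 called lower, Hras and Leprot, are protein-coding genes whose symbols only look like antisense names.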

How the data were processed

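RNA of Neuro2A nuclear and whole cell lysates, 6 groups of 3 samples, was analysed from the files deposited by the authors. Reads were demultiplexed by the authors with bcl2fastq 2.17, trimmed with Trimmomatic 0.30 and mapped by TopHat2 (genome mm10, GRCm38). Cufflinks built the loci and Cuffdiff made the comparisons. The sources used here do not give the versions of these 3 tools, the annotation release or the strand setting. The deposited normalized counts are a signal, reads divided by 1 size factor per sample, and 634903 of 635205 values above 0 were whole reads within 0.02 (99.95%). The deposited FPKM values are scaled to transcript length and sequencing depth. The deposited comparison tables with the authors' fold changes and p-values were not used.

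Samples were grouped by the labels. The 115957 loci without a symbol were left out (4.51% to 15.3% of reads). Of 52179 loci with a symbol, 15579 with a mean count of at least 10 were tested with limma 3.58.1 (R 4.3.3) on log2(count + 1), 1 model of 6 groups with a variance trend, two-sided, Benjamini-Hochberg adjustment over all loci, threshold 0.05. Each of 75 antisense-strand and 47 sense-strand pairs was compared by an exact permutation within conditions (8000 arrangements), unadjusted. Where several loci hold a sense symbol, the one with the highest mean was used. Alternatives were a pseudocount of 0.5 or of 8, filters at a mean of 1, at 50 and none, FPKM with a pseudocount of 0.1, equal medians, quantile normalization, the compared groups alone, sample weights, a block for the sample number, an absolute log2 difference above 1, loci of 1 symbol, each sample left out in turn, and edgeR 4.0.16 or DESeq2 1.42.0 run on recovered reads. Leaving out 3 libraries together, the split by strand, the ranges of mean count and the comparison of both strands of a symbol were added after the data were seen.

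Loci named with values were the 10 with the highest mean count, those called in any comparison, and their sense genes. Sp3os, Kank4os, Slc7a6os, Mccc1os and the lists of pairs by FPKM were named after their values were seen. Single genes of the cell type marker lists are not reported here. The members and lists were chosen with earlier results of these data known. On simulated counts for the 15579 loci, with 200 changed by a log2 difference of 2, limma recovered 63% for the mean nuclear against whole cell comparison, with 6 false calls, and 44% within control samples, with none.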

Additional observations from a re-analysis of the deposited data

How the results depend on the processing

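Of the 22 opposite-strand loci called between nuclear and whole cell samples, 14 also had an absolute log2 difference above 1, and the number called was 14 to 32 over the other settings and 15 to 34 with 1 sample left out, the highest without whole cell *miR-92b* sample 2. No called locus changed direction under any setting. In control samples 3 loci were called, 1 without the filter, 0 on the FPKM scale, 9 after quantile normalization, 14 in a fit of the compared groups alone, 20 with sample weights, 14 without the 3 libraries together, 10 with DESeq2 and 1 to 11 with 1 sample left out. In Scr samples 2 were called, and 0 with a pseudocount of 8, a mean of at least 50, no filter or edgeR. There was 1 with a mean of at least 1, quantile normalization, the compared groups alone, sample weights or the replicate block. DESeq2 gave 4, and fits with 1 sample left out gave 0 to 7. In *miR-92b* samples 9 were called, 1 on the FPKM scale or with the compared groups alone, 4 with edgeR or without the 3 libraries, and 2 to 17 with 1 sample left out. Between *miR-92b* and Scr the leave-one-out fits gave 0 to 1 in each compartment. The cause of these changes was not tested, apart from the fewer samples of some fits.

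The count of 19 pairs with an unadjusted p below 0.05 was 16 to 22 under the other settings and 15 to 23 with 1 sample left out. Differences near 0 changed sign. That of Nr6a1os XLOC_089251 from Nr6a1 was -0.11 on the FPKM scale and -0.026 to 0.21 with 1 sample left out, that of XLOC_089247 was -0.12 to 0.090, and that of Tspan32os from Tspan32 was -0.24 to 1.08. Seed matches were found in 7.64% of the opposite-strand genes when the longest transcript alone was searched.

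Sample numbers did not pair the samples. Correlations of deviations between same-numbered samples lay between -0.04 and 0.05 and those between other samples between -0.10 and 0.06. With the replicate block 22 loci were called in the mean of the conditions, and among the other comparisons the count changed in Scr samples alone. Rescaling to equal medians moved the median over all loci by 0.09 in the mean nuclear against whole cell comparison. None of the 34 antisense-strand loci with a mean count between 10 and 30 was called, beside 6.96% of all loci at that level called higher and 2.59% lower.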
